A study of Mus musculus with 4 samples.

Results

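The cytosolic ribosomal protein genes encode the proteins that, with the ribosomal RNAs, make up the large and the small subunit of the ribosome of the cytosol. They were taken from the deposited expression table by name and gene type, as protein–coding genes called Rpl or Rps with a digit, together with Rplp0, Rplp1, Rplp2 and Rpsa, and without kinases, binding proteins and pseudogenes. This gave 86 of 49585 genes, of which 50 belong to the large subunit, 33 to the small subunit and 3 to the P stalk, the lateral arm of the large subunit that recruits translation factors. Of these 86 genes, 77 are the standard members and 9 are paralogues named after another member, for example Rps27l after Rps27. The rule uses no measured value, though it was chosen with earlier results of these data known.

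A ribosome needs its proteins in near equal numbers, and the mRNAs of most of them are among the most abundant of a growing cell. Many of these mRNAs begin with a C followed by a run of pyrimidines, the terminal oligopyrimidine or TOP tract, through which the mTOR kinase controls their translation, often without a change in the level of the mRNA. Some of the proteins also act outside the ribosome, such as Rpl5 and Rpl11, which bind the p53 ligase Mdm2 when ribosome assembly is disturbed.

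RNA was sequenced from 2 clones of 4T1, a mouse cell line of triple–negative breast cancer, each grown from 1 cell. 4T1–HM has a high and 4T1–LM a low metastatic capacity. Both were cultured for 48 h with 50 μmol/L of deferasirox (DFX), a chelator that binds iron, or with DMSO, the solvent, which gave HM_DFX, HM_Ctrl, LM_DFX and LM_Ctrl with 1 library each. With 1 library per condition no difference below has a replicate check, no p–value is given, and a difference between HM and LM may be one between a pair of clones and not between high and low metastatic cells.

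Levels are FPKM, the fragments per kilobase of annotated exons scaled to the total of the library. Differences are log2 of the ratio of FPKM + 1. A gene counted as expressed where at least 1 library reached an FPKM of 1, which left 12669 genes. It was called higher or lower where its log2 difference was at least 0.32 in size, that is 25% higher or 20% lower, and “rose” and “fell” are used only of genes past that threshold. A change of 2-fold was the second threshold. The libraries held between 14363065 (HM_DFX) and 21883855 (LM_DFX) fragments, which were recovered from the FPKM. The 95% intervals computed from them are exact and cover counting error only. Of 6 epithelial markers 5 were expressed, and Cldn7 was not (FPKM at most 0.620). The summed FPKM of these 6 markers was 1588 and 531 in HM_Ctrl and HM_DFX, and 2069 and 1025 in LM_Ctrl and LM_DFX, so it moved with DFX, and its part in the results below was not tested. The markers of leukocytes, endothelium and erythroid cells were below the threshold for expression, and of 3 fibroblast markers only Pdgfra was expressed (FPKM 2.77 to 5.50), while Dcn and Lum were at or near 0.

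The start sites of 9 genes are shown because the family is known for the tract at the start, and because most of these genes carry results described below. Each stretch holds 15 bases before the annotated start and 15 from it onwards, 5′ to 3′ on the strand of the gene, from the RefSeq promoters of GRCm38.p6. Capitals mark the unbroken run of C and T that begins at the start itself.
Rps6 (chr4:86857353-86857382, minus strand): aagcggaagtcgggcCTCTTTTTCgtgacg
Rpl35 (chr2:39005117-39005146, minus strand): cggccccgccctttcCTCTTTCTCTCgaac
Rplp2 (chr7:141447636-141447665, plus strand): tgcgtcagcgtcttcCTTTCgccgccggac
Rps21 (chr2:180257364-180257393, plus strand): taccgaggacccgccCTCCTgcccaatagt
Rps27 (chr3:90213634-90213663, minus strand): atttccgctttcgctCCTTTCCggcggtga
Rps27rt (chr9:114982725-114982754, minus strand): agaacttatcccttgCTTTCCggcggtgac
Rps27l (chr9:66946071-66946100, plus strand): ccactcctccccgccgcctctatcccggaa
Rpl22l1 (chr3:28805493-28805522, plus strand): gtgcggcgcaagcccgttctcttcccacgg
Rpl41 (chr10:128549154-128549183, minus strand): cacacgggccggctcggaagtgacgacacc

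The first 6 stretches have a tract, with a run of 5 bases in Rplp2 and Rps21, 9 in Rps6 and 11 in Rpl35, and the last 3 have none at the annotated start. Of the 86 genes, 65 had a promoter in that table. A C at the start followed by 4 bases that are all C or T was found in 14 of the 77 start sites of these genes (18.2%) and in 2.51% of all 32851 start sites of the table. A start site annotated a few bases away from the true one hides a tract, so these counts depend on the annotation. Among other letters, CCGGAAG, the core of ETS factor sites, was found on either strand in 27 of the 77 windows of 250 bases before to 50 after the start (35.1%, against 8.86% of all windows). The letters AAGATGG, the core of YY1 sites, which can overlap the former by AAG, were in 15.6% against 6.34%, and TATAAA was in 9.09% against 13.6%.

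Of the 86 genes, 83 were expressed. The other 3 are paralogues. Rpl10l and Rpl39l, known from testis, were listed at 0 in all 4 libraries, and Rpl3l, known from heart and skeletal muscle, had an FPKM of 0.03 in LM_DFX and 0 elsewhere. The 83 expressed genes made up 32 of the 100 most abundant genes by mean FPKM, and 70 of them had a mean FPKM of at least 100.

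Rplp1, an acidic protein of the P stalk, was the most abundant, with an FPKM of 1898 and 2073 in HM_Ctrl and HM_DFX, and 2323 and 3040 in LM_Ctrl and LM_DFX. It was followed by Rps26, a small subunit protein at the mRNA exit (1373, 1441, 1495 and 1533 in the same order), and by Rpl8, Rpl36 and Rpl41 of the large subunit. At the other end, 6 genes had a mean FPKM under 20. Rpl24 was lowest, with an FPKM of 0.928 and 1.62 in HM_Ctrl and HM_DFX, and 2.41 and 1.55 in LM_Ctrl and LM_DFX, and was followed by Rpl21, Rpl29, Rpl35a, Rpl26 and Rpl30. Whether these low levels mean few mRNAs cannot be told. Of the coding 100-mers of Rpl24, 99.2% also occur in another annotated gene, and Rpl21 and Rpl29 share 100-mers with 40 and 27 other genes. For Rpl30, Rpl35a and Rpl26 the shared coding percent was 61.4%, 57.3% and 46.3%, under the median of 72.8% over the expressed genes. The part of shared sequence in these low levels was not tested. How reads that fit several places were counted is not given, so these levels are uncertain. Over the expressed genes the log2 mean FPKM did not follow the shared coding percent (Pearson r = −0.12, Spearman rho = −0.12, n = 82 genes with a coding sequence). The level was lower for genes with a longer annotated exon length (r = −0.35, rho = −0.45, n = 83). That length includes retained introns and enters the FPKM itself, so the order of levels between genes depends on the annotation. In a ratio of the FPKM of 1 gene between libraries the length cancels. With the added 1 it does not cancel fully at low levels. For Rpl24 the log2 difference of HM_Ctrl from LM_Ctrl was −0.82, and −1.38 without the added 1.

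**Figure D1:**
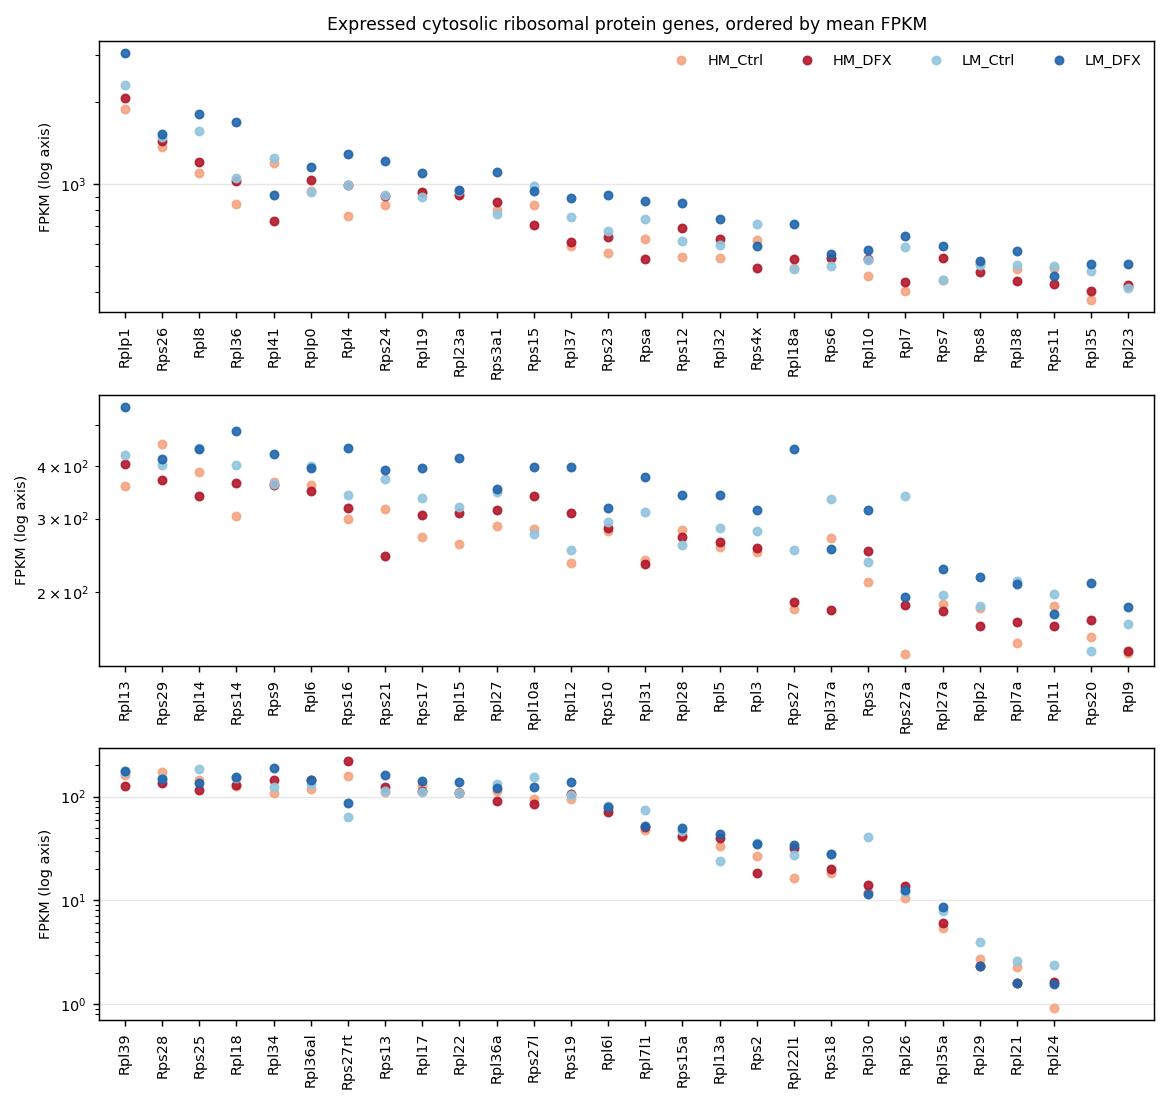
FPKM (log axis) of expressed ribosomal protein genes in the 4 libraries, 1 point per library, ordered by mean FPKM from Rplp1 to Rpl24. LM_DFX was the highest library, by any amount, for 58 of all 83 expressed genes of the family, not every one of which is drawn. The same was not counted over all expressed genes. Rps27rt, Rpl30 and Rps27a break the common order.

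The ribosomal protein genes took more of the library in LM than in HM cells. They held 4.31% of all fragments of HM_Ctrl (4.30% to 4.32%) and 4.44% of those of HM_DFX (4.43% to 4.45%). In LM_Ctrl they held 4.87% (4.86% to 4.88%), and in LM_DFX 5.65% (5.64% to 5.66%). The median FPKM of the 83 genes was 271, 284, 320 and 392 in that order, against 8.08, 7.13, 7.71 and 7.77 for all expressed genes. LM_DFX was thus highest and was also the deepest library, and the part of depth in this was not tested. By any amount and with the FPKM as deposited, it was the highest library for 58 genes, LM_Ctrl for 20, HM_DFX for 3 and HM_Ctrl for 2. The same was not counted over all expressed genes, so these counts alone do not set the family apart. In LM_DFX 16 of 83 genes (19.3%) were above the next library by at least 0.32 on the log2 scale, against 6.59% of all expressed genes. For LM_Ctrl this held for 7 genes (8.43%, against 11.0%), for HM_DFX only for Rps27rt (against 11.4%), and for HM_Ctrl for 0 (against 7.68%). In bulk RNA, a lower level in each cell and fewer cells with a high level cannot be told apart.

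The untreated clones differed first in a small shift over most of the family. Of 83 genes, 65 were lower in HM_Ctrl than in LM_Ctrl, by any amount, where 6105 of all 12669 expressed genes were. The median log2 difference of the family was −0.17 (quartiles −0.32 and −0.04), against 0.01 over all expressed genes. Past 0.32 on the log2 scale, 20 genes were lower (24.1%), where 19.9% of all expressed genes were, and 2 were higher (2.41%, against 23.0%). The count of lower genes is thus near the background, and that of higher genes is below it. The shift was similar in the large subunit (median −0.19, 47 genes) and the small subunit (−0.16, 33 genes). Shifts of this size were also seen outside the family. Ribosome assembly factors had a median of −0.24, and translation factors and other TOP mRNAs −0.18. RNA polymerase I genes had −0.02 and regulators of TOP translation 0.08. Other protein–coding genes had −0.15 with up to 300 coding bases, and 0.01 with 900 to 1500.

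At 2-fold, Rpl30 and Rps27a were lower (2.41%, against 3.15%) and Rps27rt was higher (1.20%, against 3.65%) in HM_Ctrl. Rpl30 (chr15:34440505-34443640, minus strand, mm10), a large subunit protein, had an FPKM of 12.0 and 14.0 in HM_Ctrl and HM_DFX, and 40.9 and 11.4 in LM_Ctrl and LM_DFX, from 609, 607, 1941 and 756 fragments. LM_Ctrl stood alone here, and the other 3 libraries lay close together. The log2 difference of HM_Ctrl from LM_Ctrl was −1.68, and without the added 1 it was −1.76 (interval −1.90 to −1.63). Rps27a (chr11:29545846-29548109, minus strand) encodes ubiquitin joined to a small subunit protein. Its FPKM was 143 and 186 in HM_Ctrl and HM_DFX, and 340 and 195 in LM_Ctrl and LM_DFX, again with LM_Ctrl far above the others, and HM_Ctrl was lower than LM_Ctrl by a log2 difference of −1.25. Both genes share sequence with others: 61.4% of the coding 100-mers of Rpl30 and 100% of those of Rps27a occur in another gene.

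Other genes past the threshold had smaller differences. Rpl24 had a log2 difference of −0.82, from only 16 fragments in HM_Ctrl and 39 in LM_Ctrl. Rpl8, a large subunit protein that carries a hydroxylated histidine, had an FPKM of 1099 and 1207 in HM_Ctrl and HM_DFX, and 1573 and 1808 in LM_Ctrl and LM_DFX, a difference of −0.52 between the untreated clones. Here both LM libraries were above both HM libraries. Rpl13a, which also silences inflammatory mRNAs outside the ribosome, was the only standard member called higher in HM_Ctrl, with an FPKM of 33.6 and 39.8 in HM_Ctrl and HM_DFX, and 24.0 and 43.3 in LM_Ctrl and LM_DFX, a log2 difference of 0.47.

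In 4T1–HM cells DFX moved few ribosomal protein genes. Against HM_Ctrl, HM_DFX was higher for 53 of 83 genes by any amount (63.9%, against 43.7% of all expressed genes). The median log2 difference of the family was 0.07 (quartiles −0.12 and 0.20), while the median of all expressed genes was −0.10. Past 0.32 on the log2 scale, 10 genes rose (12.0%, against 26.1%) and 9 fell (10.8%, against 38.1%), both below the background, and past 2-fold 0 genes rose and 0 fell, against 6.93% and 12.4%. With libraries scaled by median ratios, which moves the median of all expressed genes from −0.10 to 0.00, 22 genes rose (26.5%, against 32.1% of all expressed genes under the same scaling) and 3 fell (3.61%, against 32.8%), both again below the background. Relative to the median of all expressed genes, the members were higher by 0.17 as deposited and by 0.21 with that scaling.

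Among those that rose were Rpl22l1, Rps27rt, Rpl24, Rpl34, Rpl12, Rps27a, Rpl4, Rpl26 and Rps12. Rpl22l1 (chr3:28805436-28807424, plus strand), the paralogue of Rpl22, led them. Its FPKM was 16.6 and 31.7 in HM_Ctrl and HM_DFX, and 27.5 and 34.5 in LM_Ctrl and LM_DFX, a log2 difference of 0.90 under DFX in HM. HM_Ctrl was the low library, and the other 3 lay closer together. For Rpl24 the 0.44 rested on 16 and 24 fragments, and the interval of the ratio without the added 1 ran from −0.17 to 1.82 and held 0.

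With the FPKM as deposited, those that fell were Rpl41, Rpl37a, Rps2, Rps21, Rps4x, Rpl21, Rps28, Rps25 and Rpl36a. Only 3 genes fell with libraries scaled by median ratios, so most of these calls depend on the scaling. By the longest coding sequence annotated for each gene, Rpl41 (chr10:128548114-128549305, minus strand) is the shortest of the family, with 138 bases without the stop codon. Its FPKM was 1201 and 735 in HM_Ctrl and HM_DFX, and 1248 and 914 in LM_Ctrl and LM_DFX, so the control libraries were alike and both DFX libraries were lower. Its log2 difference was −0.71 in HM and −0.45 in LM. Rpl37a, a zinc finger protein of the large subunit, had an FPKM of 269, 181, 334 and 254 in the same order, with differences of −0.57 and −0.40. Rps2, a small subunit protein near the mRNA entry, had 26.5 and 18.4 FPKM in HM_Ctrl and HM_DFX but 35.4 and 35.2 in LM_Ctrl and LM_DFX. Its difference was −0.51 in HM and −0.01 in LM, and it shares 100-mers with 37 genes. Rps21, a small subunit protein with the tract shown above and no 100-mer in another gene, had an FPKM of 317, 244, 373 and 392 and a difference of −0.37 in HM against 0.07 in LM.

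With the FPKM as deposited, more of the family rose in 4T1–LM cells. Against LM_Ctrl, LM_DFX was higher for 62 of 83 genes by any amount (74.7%, against 46.8% of all expressed genes). The median log2 difference of the family was 0.17 (quartiles 0.00 and 0.38), while that of all expressed genes was −0.04. Past 0.32 on the log2 scale, 27 genes rose (32.5%), where 27.3% of all expressed genes did, and 10 fell (12.0%, against 32.7%). The share that rose is thus near the background and the share that fell is below it. Of the 33 small subunit genes 13 rose and 3 fell, and of the 47 large subunit genes 13 rose and 7 fell. At 2-fold 0 genes rose (against 7.09%), and Rpl30 fell (1.20%, against 8.72%), by 1.75 on the log2 scale. With libraries scaled by median ratios, the median under DFX was 0.22 in LM and 0.21 in HM, where 22 genes rose. The contrast between the clones thus depends on the scaling.

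Rpl13a rose most, by 0.83 on the log2 scale. Rps27 (chr3:90212522-90213651, minus strand) followed with 0.80, then Rpl36 (chr17:56613395-56614243, plus strand) with 0.69, and Rpl12 with 0.65. Rpl36 had an FPKM of 843 and 1024 in HM_Ctrl and HM_DFX, and 1054 and 1699 in LM_Ctrl and LM_DFX, so that LM_DFX stood above the other 3 libraries. It shares 94.1% of its 31-mers with other genes, and 97.3% of the coding 100-mers of Rpl13a are shared as well. Rpl12, at the base of the P stalk, had an FPKM of 235, 309, 253 and 397 in this order, with both DFX libraries above both controls. Of the P stalk itself, Rplp1 rose by 0.39, while Rplp0 had 0.30 and Rplp2 had 0.23, both under the threshold. Besides Rpl30, the genes that fell were Rps27a, Rpl29, Rpl7l1, Rpl21, Rpl41, Rps25, Rpl24, Rpl37a and Rps27l. Rps27a fell by 0.80 on the log2 scale. Rpl29 had 71 fragments in LM_Ctrl and 58 in LM_DFX.

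**Figure D2:**
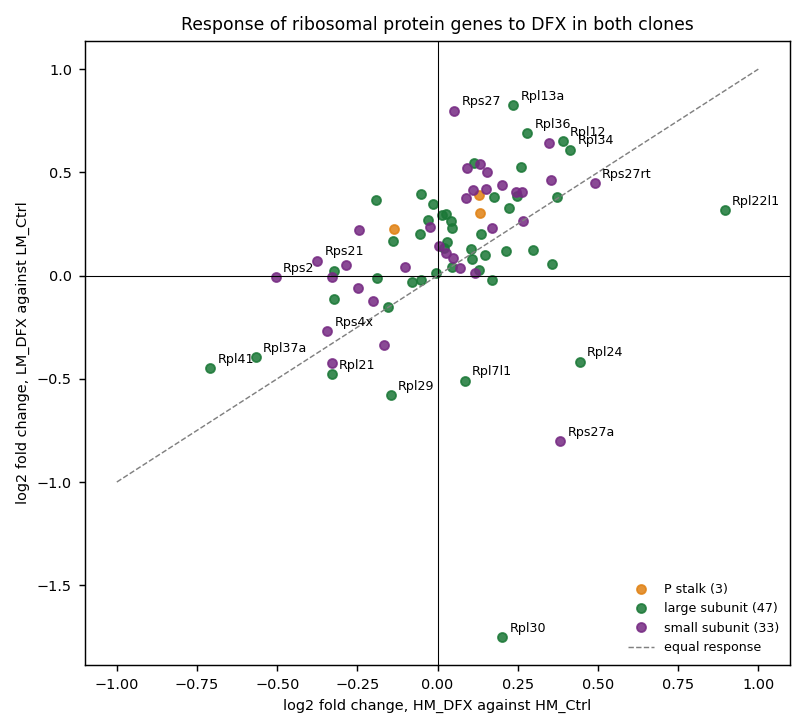
Log2 fold change under DFX in 4T1–HM (horizontal) and 4T1–LM (vertical) for the 83 expressed genes, 1 point per gene, colored by subunit, with the dashed line marking an equal response. Of 83 points 62 lie above the line, and Rpl30, Rps27a, Rpl24 and Rpl7l1 lie far below it.

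Set side by side, 48 genes were above 0 in both clones, 16 below 0 in both, 14 below 0 in HM and above 0 in LM, and 5 the reverse. With the FPKM as deposited, genes such as Rpl4, Rpl12, Rps27rt, Rps12 and Rpl34 rose past 0.32 on the log2 scale in both clones. Rps25, Rpl21, Rpl37a and Rpl41 fell past it in both. The comparisons share no library, and across the 83 genes their log2 differences had a Pearson r of 0.37 and a Spearman rho of 0.54, with r = 0.57 without Rpl30 and Rps27a and r = 0.72 over all expressed genes. Genes are not independent replicates, and those of 1 library share its depth and composition. The log2 difference under DFX was lower in HM than in LM for 62 of 83 genes, and for 7163 of all 12669 expressed genes. The median gap of the family was −0.16 (quartiles −0.29 and 0.00), against −0.08 over all expressed genes. With libraries scaled by median ratios the difference was lower in HM for 50 of 83, and for 6398 of all 12669 expressed genes. The median gap of the family was then −0.071, so that its size depends on the scaling.

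The median difference between the clones was larger with DFX than without it. HM_DFX was lower than LM_DFX for 77 of 83 genes by any amount, where it was lower for 6872 of all 12669 expressed genes. The median log2 difference of the family was −0.33 (quartiles −0.42 and −0.15), against −0.05 over all expressed genes. Past 0.32 on the log2 scale 42 genes were lower (50.6%, against 29.2%), and 1 was higher (1.20%, against 21.4%). With libraries scaled by median ratios 25 were lower (30.1%, against 25.0% of all expressed genes under the same scaling) and 2 were higher (2.41%, against 25.4%), and the median difference was −0.25. The share of lower genes is then near the background, so that the count, but not the direction of the median, depends on the scaling. Lower medians in HM were also seen outside the family. As deposited, mitochondrial ribosomal protein genes had −0.28, with 45.5% lower, and translation factors and other TOP mRNAs −0.08. Assembly factors had 0.18 and RNA polymerase I genes 0.25. Other protein–coding genes had −0.30 with up to 300 coding bases, and −0.09 with 900 to 1500. At 2-fold Rps27 was lower (1.20%, against 5.05%) and Rps27rt was higher (1.20%, against 3.31%). Rps2 had a log2 difference of −0.90, Rpl36 of −0.73 and Rpsa, which also serves as a laminin receptor, of −0.70. Rpsa had an FPKM of 628 and 531 in HM_Ctrl and HM_DFX, and 742 and 865 in LM_Ctrl and LM_DFX. Here too both LM libraries were above both HM libraries.

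**Figure D3:**
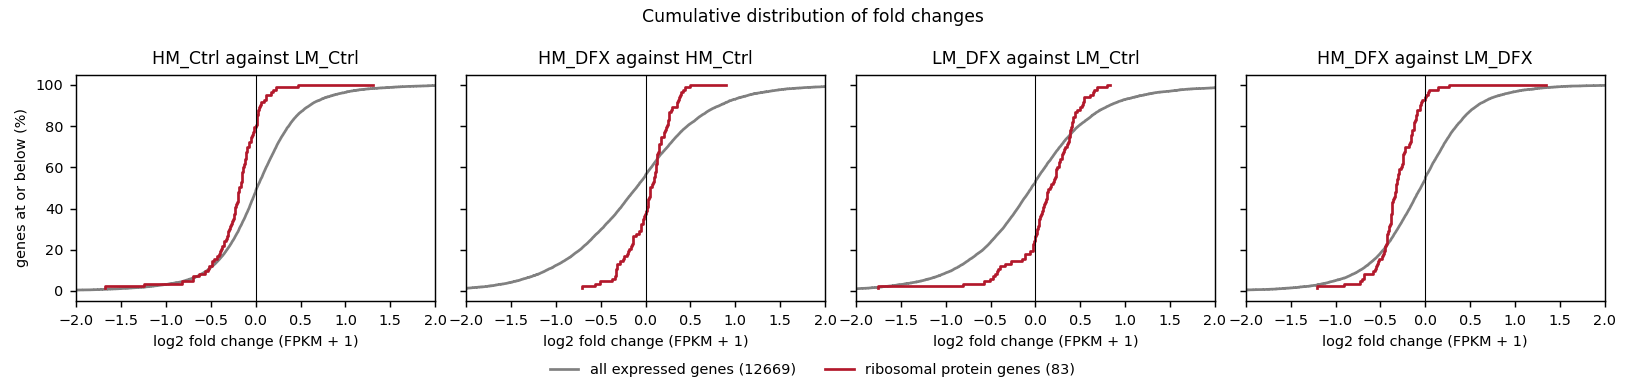
Cumulative percent of genes (vertical) by log2 fold change of FPKM + 1 (horizontal) in the 4 comparisons, for the 83 ribosomal protein genes (red) and all 12669 expressed genes (grey). The red curve lies to the left of the grey one at its middle where HM is set against LM, and it is steeper in all 4 panels.

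One set of near copies held differences between the clones in both directions. Rps27, a zinc finger protein of the small subunit, has a retrocopy, Rps27rt (chr9:114982366-114982739, minus strand), and a paralogue, Rps27l, a known p53 target. The coding sequences of Rps27 and Rps27rt are the same over all 255 bases, with 0 differences, in GENCODE release M21. This shared sequence is shown because reads within it cannot be assigned to 1 of the 2 genes.
Rps27 and Rps27rt: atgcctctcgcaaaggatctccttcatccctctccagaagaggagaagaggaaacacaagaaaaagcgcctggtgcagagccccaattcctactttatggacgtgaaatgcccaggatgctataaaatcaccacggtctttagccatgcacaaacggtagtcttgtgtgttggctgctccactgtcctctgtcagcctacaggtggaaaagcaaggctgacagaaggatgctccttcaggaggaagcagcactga

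Rps27 had an FPKM of 183 and 190 in HM_Ctrl and HM_DFX, and 253 and 440 in LM_Ctrl and LM_DFX. Rps27rt had 158 and 222 in HM_Ctrl and HM_DFX, and 63.4 and 86.7 in LM_Ctrl and LM_DFX, so it was the only gene of the family called higher in HM than in LM with DFX, and 1 of 2 without it. Its log2 difference was 1.30 between the untreated clones and 1.34 under DFX, while that of Rps27 was −0.46 and −1.21. Of the fragments counted for either gene, Rps27rt took 23.6% of 4181 in HM_Ctrl and 29.6% of 4031 in HM_DFX, but 8.26% of 4518 in LM_Ctrl and 6.60% of 10751 in LM_DFX. The intervals of these shares did not overlap between the clones (the lowest bound in HM was 22.3% and the highest in LM 9.10%). The sum over both genes does not depend on how shared reads were divided between them. It does depend on whether such reads were counted at all. Each gene of the pair shares 100-mers with 2 genes, so reads may also have gone outside the pair. For the sum, the log2 ratio was −0.20 between the untreated clones (interval −0.26 to −0.14) and 0.17 under DFX in HM (0.11 to 0.23). It was 0.77 under DFX in LM (0.72 to 0.82) and −0.81 between the clones under DFX (−0.86 to −0.76). The opposite directions of the pair are therefore uncertain as values of single genes, and the sum had the sign of the median of the family in each of the 4 comparisons. Rps27l, which shares no 100-mer with another gene, had an FPKM of 94.7, 84.3, 155 and 122 in the order HM_Ctrl, HM_DFX, LM_Ctrl and LM_DFX. It was higher in both LM libraries, with a log2 difference of −0.70 between the untreated clones.

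**Figure D4:**
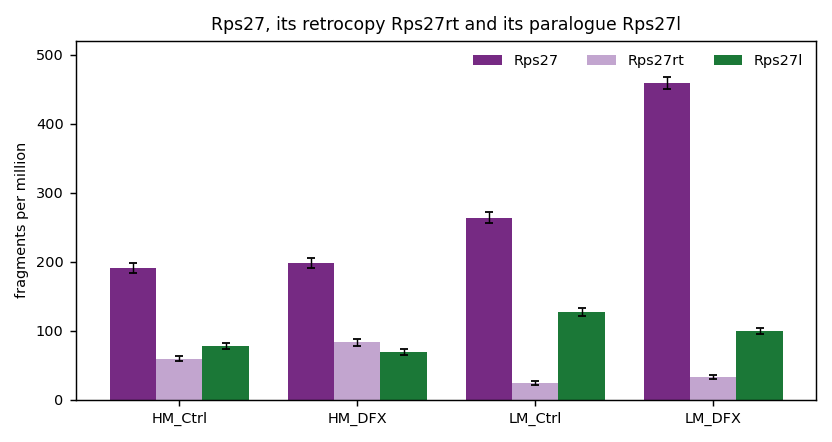
Fragments scaled to the library total (vertical, from 0) for Rps27, Rps27rt and Rps27l in the 4 libraries, with bars for the value and error bars for exact 95% counting intervals. Rps27rt is higher in the HM libraries and Rps27 and Rps27l in the LM libraries, where Rps27 is highest with DFX.

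The other paralogues were set beside the genes they are named after. Rpl22 had an FPKM of 110 and 109 in HM_Ctrl and HM_DFX, and 108 and 138 in LM_Ctrl and LM_DFX, so the rise of Rpl22l1 under DFX in HM came with a difference of −0.02 in Rpl22. Rpl7l1, a paralogue with a role in ribosome assembly, had an FPKM of 47.6, 50.5, 74.4 and 52.0 in the same order. LM_Ctrl stood out, with Rpl7l1 lower in HM_Ctrl by a log2 difference of −0.63 and lower in LM_DFX by −0.51. Rpl7 itself had 405, 436, 586 and 642, and both of its LM libraries were above its HM libraries. Rpl36al, whose coding sequence is 87.9% identical to that of the X–linked Rpl36a, had an FPKM of 119, 146, 131 and 143. Rpl36a had 114, 90.7, 131 and 121, so that the log2 difference under DFX in HM was 0.30 for the autosomal and −0.32 for the X–linked gene. For both genes 100% of the coding 100-mers occur in another gene, so these values of single genes are uncertain. Rpl6l, with an FPKM between 71.3 and 81.3, stayed under the threshold in all 4 comparisons.

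Several members have known roles outside the ribosome. Rpl5 had an FPKM of 256 and 264 in HM_Ctrl and HM_DFX, and 284 and 341 in LM_Ctrl and LM_DFX, and Rpl11 had 185, 167, 198 and 178. Neither passed the threshold under DFX in either clone. Of 2 further proteins that bind Mdm2, Rpl23 passed it in neither clone (log2 difference 0.02 and 0.30), and Rps7 did so in LM (0.26 and 0.41). Rps3, which also acts in DNA repair, had 0.24 in HM and rose by 0.40 in LM, and Rps19, often mutated in Diamond–Blackfan anemia, had 0.15 and rose by 0.42. Rps6, the substrate of the S6 kinases downstream of mTOR, stayed under the threshold in all 4 comparisons, with an FPKM of 534, 535, 501 and 552.

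Coding length and chromosome varied within the family. The 10 genes with up to 300 coding bases had a median log2 difference of −0.30 under DFX in HM, while the medians of the longer classes lay between 0.02 and 0.11. Short protein–coding genes outside the family had the same median of −0.30 (200 genes with up to 300 bases), against −0.14 for those of 900 to 1500 bases. Under DFX in LM the 10 short members had a median of 0.06. The 4 X–linked members were Rpl10, Rps4x, Rpl36a and Rpl39, with log2 differences of 0.21, −0.34, −0.32 and −0.32 under DFX in HM and of 0.12, −0.27, −0.11 and 0.02 in LM. Other X–linked genes had medians of −0.27 in HM and −0.28 in LM, against −0.10 and −0.04 for other autosomal genes. The 14 members with a tract at the annotated start had medians of 0.04 in HM and 0.12 in LM, beside 0.08 and 0.23 for the 48 without one.

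The genes that work with the ribosomal proteins did not all move with them. Ribosome assembly factors, which process ribosomal RNA and fit the proteins onto it, had a median log2 difference of 0.43 under DFX in HM, with 53 of 82 called higher and 6 lower (64.6% and 7.32%, where 26.1% and 38.1% of expressed genes were). In LM their median was 0.01, with 21 higher and 18 lower. Ribosomal protein genes had medians of 0.07 in HM and 0.17 in LM, and of 0.21 and 0.22 with libraries scaled by median ratios. HM was lower in both settings, but how far apart the medians lay depends on the scaling. With that scaling the assembly factors had 0.56 and 0.06, so that HM stayed above LM. The median gap between the clones was 0.38 for assembly factors, 70 of 82 being higher in HM (85.4%). It was −0.16 for ribosomal protein genes, 21 of 83 being higher (25.3%), and −0.08 over all expressed genes, 43.5% being higher. With libraries scaled by median ratios the gaps of assembly factors and ribosomal protein genes were 0.47 and −0.071. Eif6, which keeps immature large subunits from joining, had an FPKM of 49.0 and 115 in HM_Ctrl and HM_DFX, and 85.1 and 147 in LM_Ctrl and LM_DFX and rose in both clones. Nop10, part of the RNA modification complex, fell in both, by 0.63 and 1.21 on the log2 scale. The 15 genes of RNA polymerase I, which transcribes ribosomal RNA, had medians of 0.27 in HM and 0.01 in LM. No pre–rRNA was measured.

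Among other TOP mRNAs and translation factors, 25 genes in all, the medians were 0.14 in HM and 0.07 in LM. The noncoding RNA hosts Snhg1 and Gas5 rose most, by 1.96 and 1.44 on the log2 scale in HM and by 2.08 and 1.55 in LM, and Hnrnpa1 fell by 1.05 and 1.07. Of the 13 regulators of TOP translation, Eif4ebp1, the translation repressor controlled by mTOR, had an FPKM of 108 and 160 in HM_Ctrl and HM_DFX, and 65.4 and 188 in LM_Ctrl and LM_DFX. It rose in both clones. Larp1, which binds the tract, had 66.0, 73.3, 62.5 and 52.5, under the threshold in both clones.

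**Figure D5:**
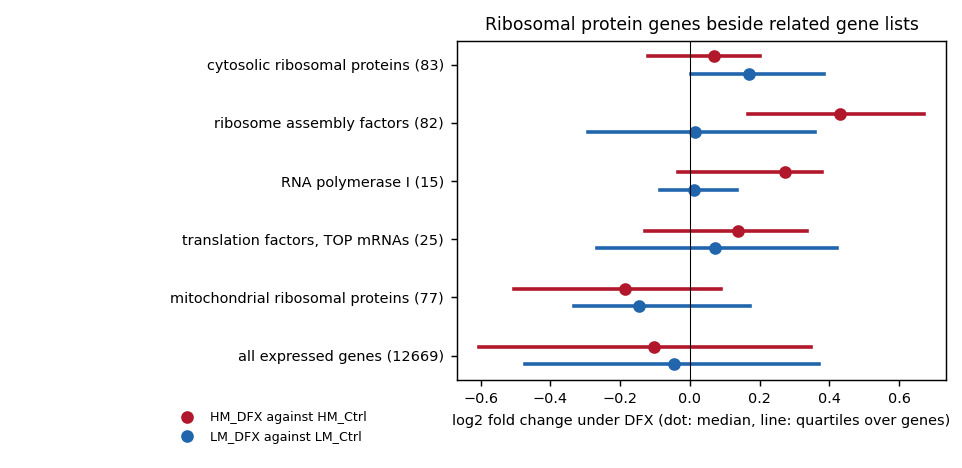
Median (dot) and quartiles over genes (line) of the log2 fold change under DFX in 4T1–HM (red) and 4T1–LM (blue), for the ribosomal protein genes, 4 related lists and all expressed genes, with the number of expressed genes in parentheses. Assembly factors sit furthest to the right in HM (0.43) and at 0.01 in LM, while ribosomal protein genes sit at 0.07 and 0.17.

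Ribosomal proteins that carry other names followed the family in part. Fau, which encodes a ubiquitin–like peptide joined to a small subunit protein, had an FPKM of 477 and 628 in HM_Ctrl and HM_DFX, and 509 and 878 in LM_Ctrl and LM_DFX and rose in both clones, by 0.40 and 0.78 on the log2 scale. Rack1, a signaling scaffold on the small subunit, had 281, 290, 302 and 347.

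Some ribosomal proteins are modified by dioxygenases that need iron. Rps23, the target of the prolyl hydroxylase Ogfod1, had an FPKM of 558 and 641 in HM_Ctrl and HM_DFX, and 675 and 914 in LM_Ctrl and LM_DFX, and rose past the threshold in LM only, with log2 differences of 0.20 and 0.44. Ogfod1 itself had 7.58, 6.73, 9.12 and 7.26. Rpl27a, the target of a histidine hydroxylase, had 187, 180, 197 and 227, under the threshold in both clones. Abce1, the iron–sulfur protein that splits ribosomes after termination, had 57.2, 100.2, 70.4 and 82.6 and rose by 0.80 in HM, with 0.23 in LM. Hydroxylation and protein levels were not measured.

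The proteins of the mitochondrial ribosome, which are encoded by other genes, are set beside them last. Their median log2 difference of HM_Ctrl from LM_Ctrl was −0.18 (77 genes), next to −0.17 in the cytosolic family. Under DFX it was −0.19 in HM and −0.14 in LM, next to 0.07 and 0.17. Past 0.32 on the log2 scale, 29 of 77 mitochondrial genes fell in HM and 21 in LM, next to 9 and 10 of the 83 cytosolic genes. The mitochondrial shares were 37.7% in HM, where 38.1% of all expressed genes fell, and 27.3% in LM, where 32.7% did, and so were near or below the background.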

How the data were processed

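Poly(A) RNA of 4 cultures of 4T1 clones was sequenced, 1 library per condition, assigned by the labels. The authors trimmed paired–end reads, aligned them to mm10 and deposited FPKM per gene. The submitters' processing notes list FastQC, Trimmomatic, HISAT2 and featureCounts, without versions. How reads fitting several places were handled is not given in the sources used here, and this bears on ribosomal protein genes most: 58 of the 83 expressed members share over 20% of their 31-mers, and 30 over 20% of their 100-mers, with another gene.

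Fold changes were log2 ratios of FPKM + 1. Fragments were recovered from exon lengths of GENCODE release M21 or a solved length (18 members). In all 4 libraries, fragments were whole within 0.02 for 96.8% of the 18235 detected genes whose coordinates equal that release, and for all 86 members. These fragments were used for shares and exact 95% (Clopper–Pearson) intervals, which cover counting error only. No count test was run, since 1 library per condition gives no spread. The calling of fold changes was tested on simulated data.

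Members and gene lists were chosen with earlier results of these data known. Named members were the 5 most abundant, the 4 highest and 4 lowest in each comparison and in the response gap, the paralogues with their parents, and 15 chosen for their roles. Of the other lists, the 2 highest and 2 lowest under DFX, or all of a short list, could be named. Genes called in both clones or in one, and those with a mean FPKM under 20, were named after their values were seen. Riox1, Riox2, Riok2 and Utp4 were not used here, and some results are not reported here. Python 3.11.15, pandas 2.3.3, numpy 2.4.6, scipy 1.17.1 and matplotlib 3.10.9 were used.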

Additional observations from a re-analysis of the deposited data

Results flagged for a closer look

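In 2 genes DFX moved the level past a log2 fold change of 0.32 in opposite directions in the clones, a difference that was not tested, since each value comes from 1 library. For Rps27a, with an FPKM of 143 and 186 in HM_Ctrl and HM_DFX, and 340 and 195 in LM_Ctrl and LM_DFX, the log2 fold change was 0.38 in HM and −0.80 in LM, a gap of 1.19. It rested on at least 4713 fragments per library, and the intervals for counting error ran from 0.33 to 0.44 and from −0.85 to −0.76. For Rpl24, at 0.44 in HM and −0.42 in LM, the gap was 0.86, from 16, 24, 39 and 35 fragments in HM_Ctrl, HM_DFX, LM_Ctrl and LM_DFX, and both of its intervals held 0 (−0.17 to 1.82 and −1.33 to 0.06).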

How the results depend on the processing

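No paired analysis was possible because each condition holds 1 library and the labels give no replicate numbers, and for the same reason no library could be left out. No median of the family changed direction. With a pseudocount of 0.1, with no filter on low values and with scaling to the 75th percentile, each median and count stayed within its counting error or within 1.5 times.

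Scaling by median ratios gave a median of 0.21 with 22 higher and 3 lower for HM_DFX against HM_Ctrl, of 0.22 for LM_DFX against LM_Ctrl, and of −0.25 with 2 higher and 25 lower for HM_DFX against LM_DFX, and a median gap of the DFX response of −0.071. Without genes sharing over 20% of 31-mers (25 left), the counts higher and lower were 0 and 7, 4 and 3, 8 and 3, and 0 and 15 for the untreated clones (a), DFX in HM (b), DFX in LM (c) and the clones under DFX (d). With the same filter on 100-mers, added after seeing the data (53 left), they were 1 and 10 in (a), 16 and 5 in (c), and 0 were higher in (d). Both filters lower counts by leaving fewer genes. Without paralogues 1 gene was higher in (a) and 0 in (d). At 1.5-fold, counts higher and lower were 1 and 6, 1 and 1, and 6 and 2 in (a) to (c), with 6 lower in (d). At 2-fold they were 1 and 2, 0 and 0, and 0 and 1, with 1 lower in (d). The share of summed FPKM was 9.25%, 9.44%, 10.1% and 11.6% in HM_Ctrl, HM_DFX, LM_Ctrl and LM_DFX, and the share of fragments with pseudogenes named after ribosomal proteins was 4.64%, 4.76%, 5.25% and 6.03%.

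Of 492 values of 41 named members under 3 alternatives, 382 stayed within counting error and 110 moved by more. Scaling by median ratios shifts a comparison as a whole, so that values near 0 can change sign. Depth limits Rpl24, Rpl29 and Rpl21, whose counts are low. Variation between cultures is unknown.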

Other observations

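Pseudogenes named after ribosomal proteins were not members. Of 256 in the table, 135 were above 0 in at least 1 library and 75 were expressed. They held 0.334% of all fragments in HM_Ctrl (0.332% to 0.337%), 0.317% in HM_DFX (0.314% to 0.320%), 0.382% in LM_Ctrl (0.379% to 0.385%) and 0.387% in LM_DFX (0.384% to 0.390%). Both LM libraries were thus above both HM libraries, as for the ribosomal protein genes, and fragments from the parent genes that were assigned to a pseudogene cannot be told apart from pseudogene RNA.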
